A study of Mus musculus with 16 samples.

Results

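Satellite glia wrap the cell bodies of sympathetic neurons, and Schwann cells wrap their axons. Both descend from the neural crest, and a superior cervical ganglion (SCG) explant therefore brings glia into culture together with its neurons, fibroblasts, macrophages and vessels. The genes described here are 7 markers of these glia, chosen by name: Sox10 and Foxd3, transcription factors of the neural crest glial lineage; Erbb3, the receptor through which Schwann cells take up neuregulin signals from axons; Fabp7, a brain-type fatty acid-binding protein of immature and satellite glia; S100b, a calcium-binding protein of glia; Cdh19, a cadherin of Schwann cell precursors and satellite glia; and Mbp, a protein of compact myelin. All 7 were found as protein-coding rows of the table of nerve libraries, which lists 56941 genes, 21684 of them protein-coding, and all 7 passed the filter on low values that left 15984 protein-coding genes.

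The explants came from wild-type C57BL/6J pups of postnatal days 1 to 4, were treated with collagenase and triturated, and grew with nerve growth factor on poly-d-lysine and laminin. They were cultured alone (SCG, n = 3 libraries) or below inserts of NIH 3T3 cells, an established line of mouse embryonic fibroblasts (SCG+MEF, n = 3). Others were cultured below inserts of mPSC1 cells, an immortalized line of activated murine pancreatic stellate cells (SCG+PSC, n = 4). Stellate cells are, among other cells, a source of the fibroblasts of pancreatic tumors. Each well held 8 to 13 explants and each insert 10000 cells, and the cultures shared medium without contact for about 70 hours. Each partner is 1 cell line, and the labels do not tie libraries to pups, litters or dates, so the p-values measure the spread between libraries. In the mouse genome (GRCm39) Sox10 lies on chromosome 15 (79039108 to 79049469), Foxd3 on chromosome 4 (99544536 to 99546859), Cdh19 on chromosome 1 (110815039 to 110905349) and Mbp on chromosome 18. Erbb3 (128403392 to 128425811), Fabp7 (57660956 to 57664554) and S100b (76085090 to 76097159) lie on chromosome 10. The values are normalized counts, that is, reads on a gene divided by the library's size factor, and recovered reads on genes ranged from 32013901 to 39197230 in the 9 nerve libraries where they could be read back. As bulk RNA, a lower level may stand for fewer cells of a type or less RNA per cell, and these cannot be told apart.

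The labelled tissue was checked against its markers. Sympathetic neuron markers such as Prph, a peripheral neurofilament protein, and Tubb3, a neuronal tubulin, averaged 54367 and 38865 normalized counts over the 10 libraries, and glial genes were plainly present. The mPSC1 table, normalized separately, listed Sox10 and Foxd3 at 0 in every library of mPSC1 cells cultured alone, while Mbp was listed there at 144 to 246.

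Promoter sequence was available from RefSeq (GRCm38.p6) for 3 of the 7 genes, Foxd3, Fabp7 and S100b. Fabp7 is shown because it is the member called under the block below, and S100b is set beside it as a member that was called in no comparison. Each sequence runs 5′ to 3′ along the gene's strand, from 250 bases before the start of the transcript to 50 bases after it. Capitals mark matches on either strand to ACAANG, the core of the sites bound by SOX factors, and to TGGGAA, the core of the sites bound by RBPJ, the factor that carries Notch signals. The Fabp7 promoter lies at chr10:57784673-57784972 on the plus strand and that of S100b at chr10:76253586-76253885 on the plus strand.
Fabp7: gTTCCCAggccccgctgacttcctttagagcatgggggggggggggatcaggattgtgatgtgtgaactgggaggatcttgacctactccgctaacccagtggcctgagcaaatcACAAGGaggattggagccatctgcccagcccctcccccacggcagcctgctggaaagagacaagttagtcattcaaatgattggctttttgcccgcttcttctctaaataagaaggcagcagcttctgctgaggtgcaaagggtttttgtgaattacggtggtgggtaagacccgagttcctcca
S100b: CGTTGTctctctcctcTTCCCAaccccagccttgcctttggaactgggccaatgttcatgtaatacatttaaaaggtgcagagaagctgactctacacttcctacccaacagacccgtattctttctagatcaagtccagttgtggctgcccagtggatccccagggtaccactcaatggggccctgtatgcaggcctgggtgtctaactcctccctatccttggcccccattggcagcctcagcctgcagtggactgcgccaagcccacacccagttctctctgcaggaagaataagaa

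Each of these promoters held 1 match to each motif, and that of Foxd3 held 0. The SOX letters occur in 41.2% and the RBPJ letters in 25.6% of 32851 mouse promoters of this length, so a match is common and describes letters only.

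Expressed per kilobase of exon, the glial genes spanned a wide range of levels in explants cultured alone. Sox10 stood highest, with 4117 ± 666 normalized counts per kb (SD, n = 3), followed by Fabp7 with 3006 ± 937, Cdh19 with 2927 ± 279 and Erbb3 with 2289 ± 375. All 4 lay at or above the 97.6th percentile of protein-coding genes. Foxd3 followed with 1417 ± 216 and S100b with 463 ± 150, and Mbp stood lowest with 114 ± 36.9 normalized counts per kb, near the middle of all genes at percentile 49.8. The libraries of neighbours in this order overlapped for Sox10 and Fabp7 and for Fabp7 and Cdh19, and each lower step separated the genes in all 3 libraries.

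The first question was whether coculture with either fibroblast line changed the glial genes. The threshold was a limma p of 0.05 or less after Benjamini-Hochberg adjustment over all genes, with a log2 fold change past 0.5 in either direction. None of the 7 passed it in any of the 3 comparisons when libraries were compared without regard to replicate number, and neither edgeR nor DESeq2 without a block called any. Of all protein-coding genes that fit called 0.0501% for SCG+PSC relative to SCG, 0.0188% for SCG+MEF relative to SCG and 0% between the cocultures. Before adjustment 0, 0 and 1 of the 7 had p under 0.05, against 5.57%, 2.72% and 3.93% of all protein-coding genes.

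Libraries with the same replicate number deviated together, and with the number as a block the shares called were 1.93%, 0.238% and 1.14%. Under the block Fabp7 alone of the 7 passed. It was lower in SCG+MEF than in SCG, where 0.0688% of all protein-coding genes were called lower, and higher in SCG+PSC than in SCG+MEF, where 0.957% were called higher. In SCG+PSC relative to SCG 0 of 7 passed. Before adjustment 0, 3 and 3 of the 7 had p under 0.05 with the block, against 13.2%, 8.09% and 14.7% of all genes. The libraries of 2 groups did not overlap for 5.11%, 5% and 4.6% of all genes in the 3 comparisons, and for 0 of the 7 in each. SCG+PSC replicate 4 has no partner of its number and does not bear on the differences between groups in the blocked fit.

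**Figure D1:**
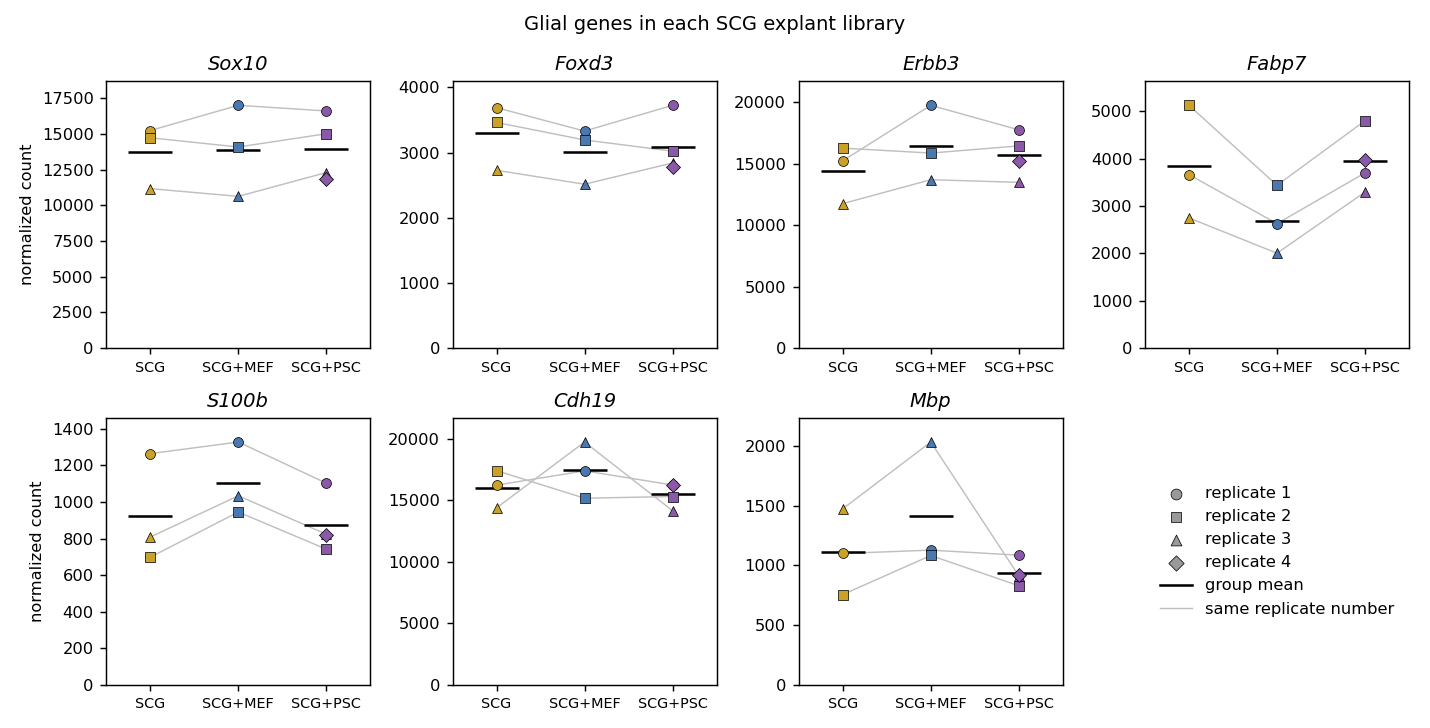
Normalized counts (y axis, from 0) of the 7 glial genes in each nerve library, by culture group (x axis). Symbols give the replicate number, grey lines join libraries of 1 number and black bars are group means. Fabp7 is lower in SCG+MEF along each of the 3 lines, while for Sox10, Foxd3 and Erbb3 replicate 3 is the lowest of replicates 1 to 3 in every group.

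Fabp7, whose product binds long-chain fatty acids in radial and satellite glia, was the member with the clearest difference. It was measured at 3662, 5125 and 2748 normalized counts in SCG replicates 1 to 3, at 2627, 3436 and 2003 in SCG+MEF replicates 1 to 3, and at 3698, 4799, 3293 and 3975 in SCG+PSC replicates 1 to 4. The groups overlapped, because replicate 2 was highest and replicate 3 lowest in each group of 3, but within each replicate number the SCG+MEF library was the lowest. The log2 difference of SCG+MEF from SCG was -0.48, -0.58 and -0.46 in the 3 pairs, and that of SCG+PSC from SCG+MEF was 0.49, 0.48 and 0.72.

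With the replicate block Fabp7 fell by 0.50 on the log2 scale in SCG+MEF (SE 0.08, 95% interval -0.68 to -0.33, adjusted p = 0.0336 by limma). It was higher by 0.56 in SCG+PSC than in SCG+MEF (SE 0.08, interval 0.39 to 0.74, adjusted p = 0.0213). Without the block the first difference had the same size with an SE of 0.24 and the second was 0.57 with an SE of 0.22, and neither passed (adjusted p = 1 for both). In SCG+PSC against SCG the difference was 0.06 with an interval of -0.12 to 0.24 under the block. The call in SCG+MEF against SCG was lost without SCG replicate 1, 2 or 3, SCG+MEF replicate 1, 2 or 3, or SCG+PSC replicate 1, with adjusted p from 0.0518 to 0.282, and the difference itself stayed between -0.57 and -0.45. The call in SCG+PSC against SCG+MEF was lost without SCG+MEF replicate 1 or 3 or SCG+PSC replicate 1, with adjusted p of 0.191, 0.180 and 0.0676, and without SCG+PSC replicate 3, where the difference was 0.48.

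**Figure D2:**
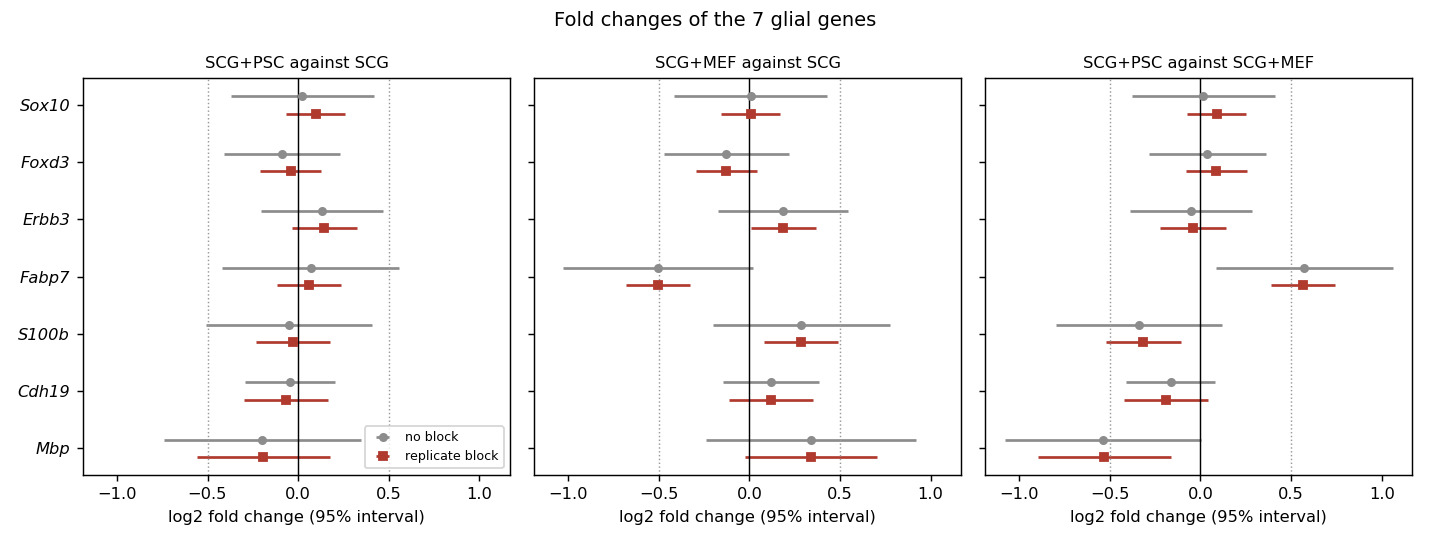
Log2 fold changes (x axis) of the 7 glial genes in the 3 comparisons, with 95% intervals from limma, without a block (grey circles) and with the replicate block (red squares). Dotted lines mark the fold threshold of 0.5. With the block the Fabp7 interval lies below 0 in SCG+MEF against SCG and above 0 in SCG+PSC against SCG+MEF, and in SCG+PSC against SCG each of the 7 intervals includes 0.

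The lineage factors differed little between the cultures. Sox10, which glia need from the neural crest onward, had 15239, 14731 and 11167 normalized counts in SCG, 17004, 14085 and 10628 in SCG+MEF, and 16609, 15015, 12297 and 11827 in SCG+PSC. Replicate 1 was highest in every group and the groups overlapped over nearly their whole range. The blocked difference was 0.10 in SCG+PSC against SCG (interval -0.07 to 0.26, adjusted p = 0.726 by limma) and 0.01 in SCG+MEF against SCG (interval -0.16 to 0.17, adjusted p = 0.993). These intervals leave out changes of the size of the fold threshold in either direction.

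Foxd3, which keeps neural crest cells and early glia from other fates, was measured at 3690, 3463 and 2729 in SCG, 3331, 3194 and 2515 in SCG+MEF, and 3726, 3022, 2842 and 2777 in SCG+PSC. It was lower in SCG+MEF than in SCG in all 3 pairs, by 0.12 to 0.15 on the log2 scale, a blocked difference of -0.13 (interval -0.30 to 0.04) that did not pass the test (adjusted p = 0.755 by limma). The difference of SCG+PSC from SCG was -0.04 (interval -0.21 to 0.13). In the annotation 3.83% of the exon bases of Foxd3 lie in another gene on the same strand, Gm55933, so its reads could be shared to that extent.

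Erbb3, the partner of Erbb2 in the neuregulin receptor of Schwann cells, had 15250, 16283 and 11766 normalized counts in SCG, 19769, 15881 and 13710 in SCG+MEF, and 17773, 16465, 13497 and 15239 in SCG+PSC. Replicate 3 was the lowest library of each group. Its blocked difference was 0.15 in SCG+PSC (interval -0.03 to 0.32) and 0.19 in SCG+MEF (interval 0.01 to 0.37, adjusted p = 0.643 by limma). Of the 16 other genes of the neuregulin and ErbB pathway, 0 passed in any comparison by limma with or without the block. Without the block 5.57%, 2.72% and 3.93% of all protein-coding genes had an unadjusted p under 0.05, and so had 0, 0 and 2 of the 16. With it the shares were 13.2%, 8.09% and 14.7%, and the counts among the 16 were 3, 0 and 3. Their median log2 fold change with the block was 0.01 with PSC, 0.04 with MEF and -0.05 between the cocultures, beside 0.01, 0.03 and -0.02 over all protein-coding genes. The highest of these were Adam10, a protease that cuts cell surface proteins, with 22457 ± 3008 (SD, n = 3) in SCG, and Shc1, an adaptor of receptor tyrosine kinases, with 9283 ± 883.

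The mature glial markers S100b and Mbp lay higher in SCG+MEF, opposite to Fabp7, without passing the test. S100b had 1265, 698 and 808 normalized counts in SCG, 1328, 945 and 1034 in SCG+MEF, and 1103, 742, 824 and 819 in SCG+PSC. Its SCG+MEF library was the highest of each replicate number, and the blocked differences were 0.29 in SCG+MEF against SCG (interval 0.08 to 0.49, adjusted p = 0.457 by limma) and -0.31 in SCG+PSC against SCG+MEF (interval -0.52 to -0.11, adjusted p = 0.177).

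Mbp had 1101, 756 and 1474 in SCG, 1128, 1083 and 2034 in SCG+MEF, and 1086, 830, 913 and 920 in SCG+PSC. The SCG+MEF library was again the highest of each number, by a margin that ran from 0.04 to 0.52 on the log2 scale over SCG. The blocked difference of SCG+PSC from SCG+MEF was -0.53 (interval -0.90 to -0.17, adjusted p = 0.207 by limma). DESeq2 with the block, run on the reads of the 9 libraries where they could be recovered, put it at -0.52 with an adjusted p of 0.0434, past the threshold, where it called 2.29% of all protein-coding genes. The single pairs were -0.06, -0.38 and -1.15, so replicate 3 carried most of it. The Mbp locus also gives Golli transcripts, which cells other than myelinating glia make, and counts per gene do not separate them.

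Cdh19 varied least among the 7, with a coefficient of variation of 9.53% in SCG. It had 16212, 17388 and 14365 normalized counts in SCG, 17374, 15152 and 19715 in SCG+MEF, and 16226, 15289, 14136 and 16198 in SCG+PSC. Neither group stood apart from SCG, and the blocked differences were -0.07 in SCG+PSC (interval -0.30 to 0.16) and 0.12 in SCG+MEF (interval -0.11 to 0.35).

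The variation that the glial genes did show followed the replicate number more than the culture for each gene but Cdh19. Over the 9 libraries of replicates 1 to 3 the number held 91.2% of the log2 variance of Sox10 and the group 3.72%, and for Foxd3 the shares were 83.3% and 8.15%. Erbb3 and S100b had 74.9% and 74.8% with the number. Fabp7 had 57.4% with the number and the largest share with the group among the 7, 40.0%. Mbp had 45.0% with the number and 29.1% with the group. Cdh19 had 4.18% with the number, 29.4% with the group and 66.4% with neither. These shares are a description, and what the numbers stand for (a day, a litter or a dissection) is not given in the labels.

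**Figure D3:**
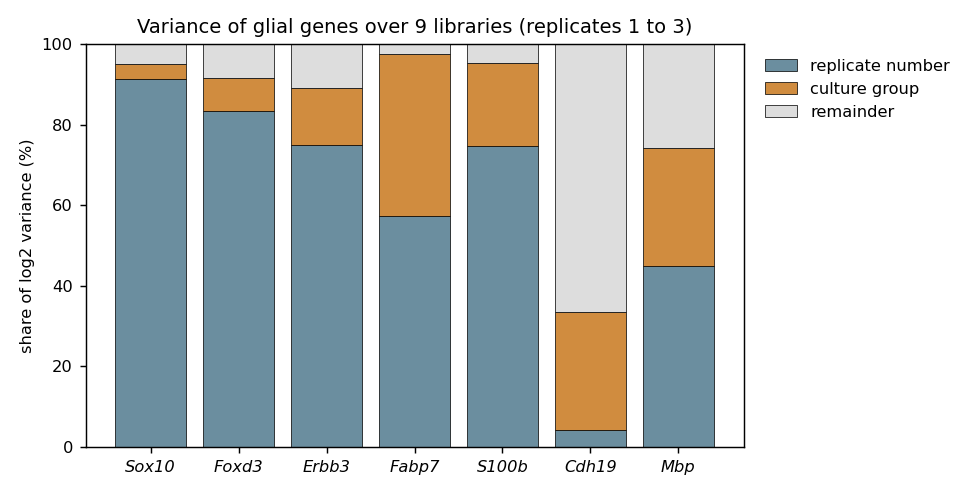
Share of the variance of log2(normalized count + 1) of each glial gene (y axis, percent) held by the replicate number, the culture group and the remainder, over replicates 1 to 3 of the 3 groups. The replicate number holds the largest part for each gene but Cdh19, and Fabp7 has the largest part for the group.

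The lineage genes also varied together. After the group means were taken out, the log2 values of Sox10 correlated with those of Foxd3 at r = 0.94 and with those of Erbb3 at 0.93 over the 10 libraries, while Fabp7 and Mbp had r = -0.89. The libraries share replicate numbers and tissue composition, and no test is attached to these values. Among 12128 protein-coding genes with a mean of at least 100, the profile most like the mean profile of the 7 was that of Lgi4, a secreted Schwann cell protein needed for axon sorting, with r = 0.95 over 10 libraries. The next were Nr6a1, Nkd2, Tcea2 and Shkbp1, also with r between 0.94 and 0.95, and of the 10 most alike only Lgi4 was in a glial list.

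Beyond the 7 genes, 61 other glial genes were followed as lists of lineage transcription factors, myelin and Schwann cell membrane genes, satellite glia homeostasis genes and repair Schwann cell genes, and 59 of them were tested. Without the block 0 passed in each comparison by limma, where 13, 4 and 9 of the 59 had an unadjusted p under 0.05, beside the 5.57%, 2.72% and 3.93% of all protein-coding genes given above. EdgeR called 0 as well, and DESeq2 called Kcnj10 in both comparisons that involve SCG+MEF, at adjusted p = 0.0494 in each. With it 2 were higher and 1 lower in SCG+PSC than in SCG, 1 was higher and 1 lower in SCG+MEF than in SCG, and 1 was higher and 2 lower in SCG+PSC than in SCG+MEF. Of all protein-coding genes 1.75% were called higher and 0.175% lower in the first comparison, 0.169% and 0.0688% in the second, and 0.957% and 0.181% in the third. With the block 23, 12 and 19 of the 59 had an unadjusted p under 0.05 by limma, beside 13.2%, 8.09% and 14.7% of all protein-coding genes. Groups did not overlap for 7, 3 and 5 of the 59, beside 5.11%, 5% and 4.6% of all protein-coding genes. The blocked median over the 59 was 0.06, 0.06 and 0.05 in the 3 comparisons. The genes that passed with the block were named after their values were seen.

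Gldn, gliomedin, which Schwann cells deposit at nodes of Ranvier, was higher with both lines. It had 5588, 4749 and 3646 normalized counts in SCG, 9046, 6942 and 6075 in SCG+MEF, and 8385, 8586, 6946 and 7189 in SCG+PSC. Each coculture library lay above each SCG library, and groups did not overlap for 5.11% of all protein-coding genes with PSC and 5% with MEF. The blocked rise was 0.79 with PSC (SE 0.09, adjusted p = 0.00245 by limma) and 0.66 with MEF (SE 0.09, adjusted p = 0.00976), and the 2 cocultures differed by 0.13 (interval -0.06 to 0.32). The call with PSC held under the block whichever library was left out, and that with MEF was lost without SCG replicate 1 or 3 or SCG+MEF replicate 1 or 3, with adjusted p from 0.0510 to 0.130.

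Kcnj10, the Kir4.1 potassium channel by which satellite glia take up potassium around neurons, followed the pattern of Fabp7. It had 1778, 1974 and 1570 in SCG, 1256, 1120 and 888 in SCG+MEF, and 1740, 1986, 1629 and 1612 in SCG+PSC. All 3 SCG+MEF libraries lay below each library of the other groups. Groups did not overlap for 5% of all protein-coding genes in SCG+MEF against SCG and for 4.6% between the cocultures. The blocked fall with MEF was -0.71 (SE 0.09, adjusted p = 0.00921 by limma), SCG+PSC stood 0.72 above SCG+MEF (adjusted p = 0.0159), and SCG+PSC and SCG differed by 0.01 (interval -0.19 to 0.21). The first call was lost without SCG replicate 1 or 3 or SCG+MEF replicate 2 or 3, with adjusted p from 0.0510 to 0.113, and the second without SCG+MEF replicate 1 or 3, at 0.0828 and 0.180.

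The repair list, genes that Schwann cells turn on after nerve damage, gave changes in both directions with PSC. Olig1, a basic helix-loop-helix factor, had 2089, 1952 and 1254 in SCG, 2146, 1603 and 1233 in SCG+MEF, and 1661, 1036, 799 and 1075 in SCG+PSC, lowest with PSC in each number though the groups overlapped. It fell by 0.63 on the log2 scale against SCG (adjusted p = 0.0115 by limma with the block) and was 0.54 lower than in SCG+MEF (adjusted p = 0.0359). Artn, artemin, a trophic factor for sympathetic neurons, rose by 0.57 with PSC (adjusted p = 0.0141 by limma with the block). It had 2750, 2018 and 1210 in SCG and 3524, 2761, 2241 and 2420 in SCG+PSC. In SCG+MEF it had 3335, 2629 and 1690, also above SCG in each replicate number, without passing the threshold there. Without SCG replicate 3 both differences from SCG lost their call (Olig1 adjusted p = 0.0763, Artn 0.0978), and without SCG+PSC replicate 3 the Artn difference was 0.43, under the fold threshold.

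The Olig1 difference from SCG+MEF was lost without SCG replicate 3, any of the SCG+MEF libraries, or SCG+PSC replicate 1, 2 or 3, with adjusted p from 0.0587 to 0.251. Igfbp2, a binding protein of insulin-like growth factors, had 393, 346 and 248 in SCG+MEF and 225, 261, 111 and 140 in SCG+PSC, a blocked difference of -0.79 (adjusted p = 0.0486 by limma). That call was lost in 8 of the 10 fits that left out a library, the exceptions being those without SCG+PSC replicate 2 or 4, with adjusted p from 0.0566 to 0.301. Jun, Gdnf, Bdnf and the rest of the repair list did not pass by limma. With the block 7, 4 and 8 of its 14 genes had an unadjusted p under 0.05, beside 13.2%, 8.09% and 14.7% of all protein-coding genes. Jun ran from 11651 to 12983 in SCG+PSC, below each library of SCG (13268 to 14763) and of SCG+MEF (14391 to 15742). Groups did not overlap for 5.11% and 4.6% of all protein-coding genes in these 2 comparisons. Ngfr, the low-affinity neurotrophin receptor, and Gap43, a growth cone protein, were the highest of the list, with 68222 ± 5258 and 25709 ± 4720 (SD, n = 3) in SCG, and neurons express both as well.

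Among the myelin and Schwann cell membrane genes, L1cam, an adhesion molecule also made by neurons, was the highest, with 25871 ± 4144 normalized counts in SCG (SD, n = 3), and it did not pass in any comparison. Of the 17 genes of this list that were tested, Gldn alone passed under the block.

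The 13 lineage transcription factors tested had 0 calls by limma in each comparison. Without the block 5.57%, 2.72% and 3.93% of all protein-coding genes had an unadjusted p under 0.05, and so had 4, 0 and 2 of the 13. With it the shares were 13.2%, 8.09% and 14.7%, and the counts among the 13 were 7, 0 and 3. Zeb2, a Schwann cell differentiation factor, was the highest, with 12237 ± 1053 normalized counts in SCG and 12541 ± 878 in SCG+PSC (SD, n = 3 and 4). Tfap2b, which sympathetic neurons also use, had 3756 ± 1079 and 5682 ± 1122, a blocked difference of 0.55 (interval 0.19 to 0.91, adjusted p = 0.181 by limma). The pairs were 0.24, 0.17 and 1.24, and without SCG+PSC replicate 3 the difference was 0.28. Without SCG+PSC replicate 2 it was 0.74 and passed the test (adjusted p = 0.0366 by limma). Of the 16 satellite glia genes Apoe, a lipid carrier that macrophages make too, was the highest. Its level was 39651 ± 8422 in SCG and 29401 ± 4891 in SCG+PSC, a blocked difference of -0.45 with an adjusted p of 0.0143 by limma, short of the fold threshold. Fbln2, a matrix protein also made by fibroblasts, had a blocked difference of 0.76 between SCG+PSC and SCG+MEF (adjusted p = 0.0599 by limma). The pairs were 0.62, 0.21 and 1.44, and without SCG+MEF replicate 3 the difference was 0.47. It passed without SCG+MEF replicate 2 or SCG+PSC replicate 2, at 0.98 and 0.95, and by DESeq2 with the block.

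**Figure D4:**
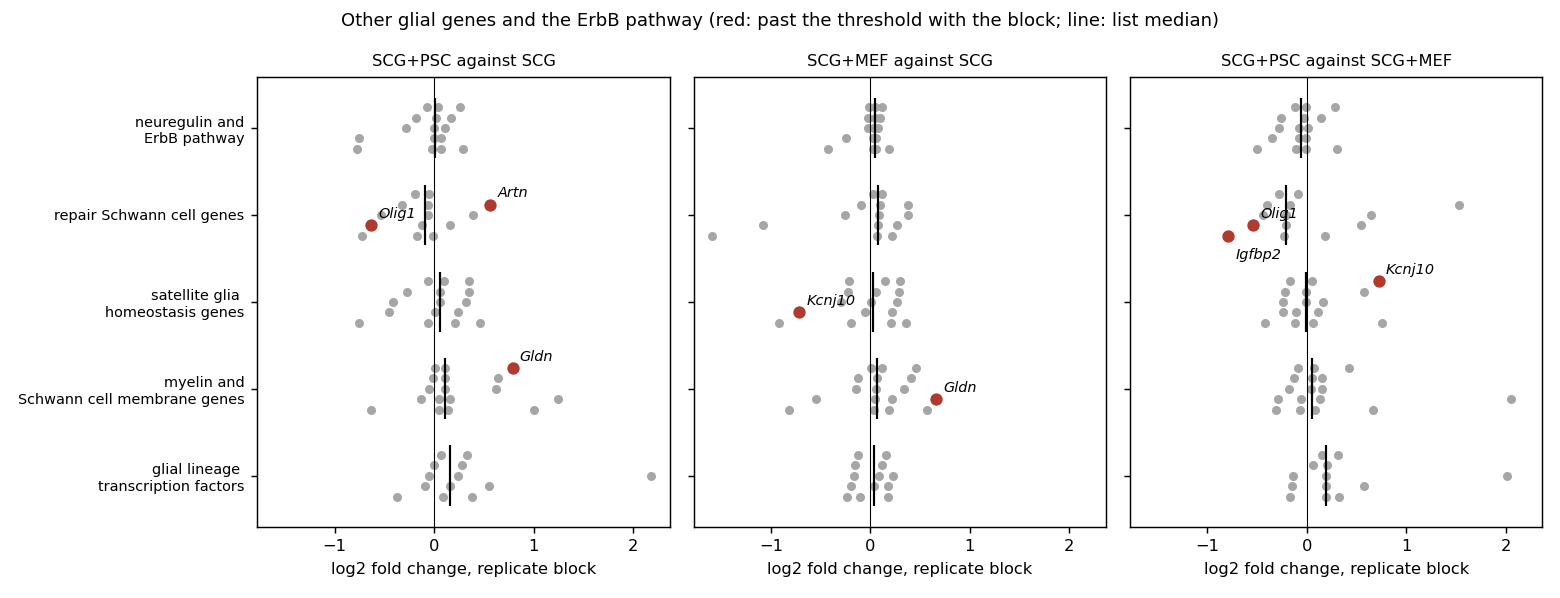
Log2 fold changes with the replicate block (x axis) of the genes of 4 glial lists and of the neuregulin and ErbB pathway, in the 3 comparisons. Each point is 1 gene, red points with names are past the threshold under the block and black lines are list medians. Kcnj10 is red on the left in SCG+MEF against SCG and on the right in SCG+PSC against SCG+MEF, and Gldn is red on the right against SCG with both lines.

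Markers of other cells were read beside these results. The summed level of the 7 glial genes ran from 1279 to 1718 counts per 1000000 normalized counts in SCG, from 1448 to 1812 in SCG+MEF and from 1398 to 1745 in SCG+PSC, and the groups overlapped. Sympathetic neuron markers summed to between 4998 and 10098 per 1000000 in SCG and overlapped in the same way, with 0 of 15 past the threshold under the block in each comparison (limma, unadjusted p under 0.05 for 0, 4 and 5). Endothelial markers had 0 of 8 past it in each comparison, though all 8 had an unadjusted p under 0.05 in SCG+PSC relative to SCG, 3 with MEF and 1 between the cocultures, beside 13.2%, 8.09% and 14.7% of all genes. With PSC their blocked median log2 fold change was 1.12, with Emcn alone below 0 at -0.48, and the libraries of 5 of the 8 did not overlap between SCG+PSC and SCG, beside 5.11% of all genes. DESeq2 with the block called 2 of them there, and limma with the block called 2 without SCG replicate 1 and 1 without SCG+PSC replicate 2. Fibroblast markers had 1 of 10 with PSC (Lum) and 2 of 10 with MEF (Dcn and Lum), and macrophage markers 1 of 10 with PSC (Mrc1) and 0 with MEF. These calls were all higher than in SCG, where limma with the block called 1.75% of all protein-coding genes higher with PSC and 0.169% with MEF. Without SCG replicate 1 or SCG replicate 3 both lists had 0 calls with PSC, and the fibroblast list also without SCG+MEF replicate 3 or SCG+PSC replicate 1. The part of these cells in the glial results was not tested.

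Cell division genes stood apart from the glial genes. Under the block 11 of 12 were higher in SCG+PSC than in SCG, where 1.75% of all protein-coding genes were called higher by limma. Between SCG+MEF and SCG 0 of 12 differed, where 0.238% of all were called. In SCG+PSC 8 of 12 were higher than in SCG+MEF, where 0.957% of all were called higher. Without the block 0 of 12 passed in any comparison. The first count fell to 4 without SCG replicate 1, to 1 without SCG replicate 3, to 5 without SCG+MEF replicate 3 and to 7 without SCG+PSC replicate 1. The count between the cocultures was 0 without SCG+MEF replicate 1 or 3 or SCG+PSC replicate 1, and 2 without SCG replicate 3, SCG+MEF replicate 2 or SCG+PSC replicate 3. Their summed level was 204 to 720 per 1000000 in SCG, 245 to 767 in SCG+MEF and 601 to 1033 in SCG+PSC. Which cells of the explant held these transcripts was not tested.

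**Figure D5:**
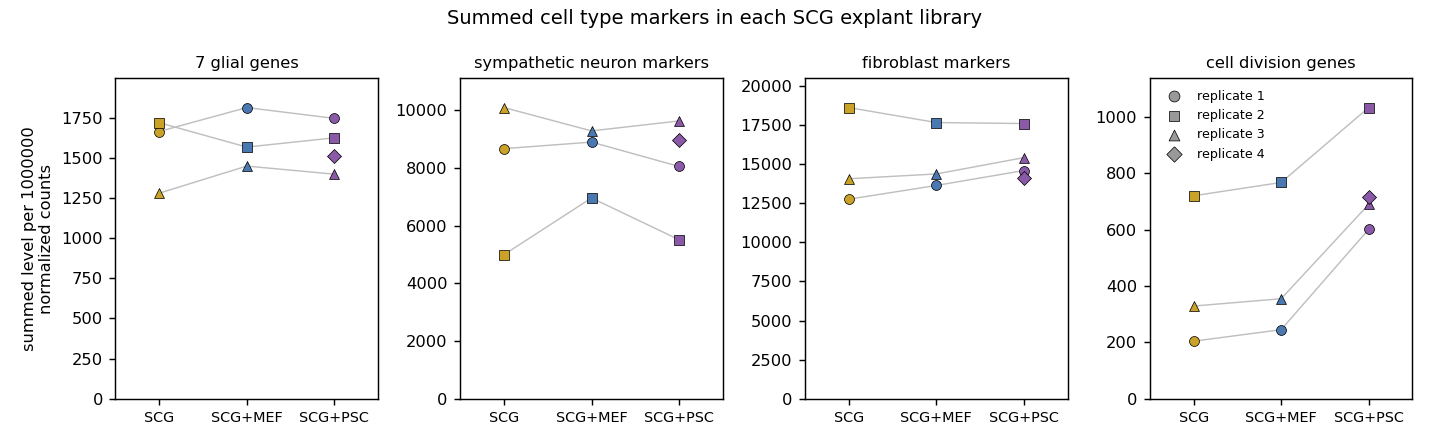
Summed level (y axis, per 1000000 normalized counts, from 0) of the 7 glial genes, sympathetic neuron markers, fibroblast markers and cell division genes in each nerve library, by culture group. Symbols give the replicate number and grey lines join libraries of 1 number. The cell division genes sum to between 601 and 1033 in SCG+PSC and are highest there along each of the 3 lines, and the sums of the 7 glial genes overlap between the groups.

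The same 7 genes were also listed in the table of mPSC1 libraries, cultured alone (PSC, n = 3) or on inserts above SCG explants (PSC+SCG, n = 3). Sox10 was at 0 in each PSC library and at 0.989, 0.987 and 0 in PSC+SCG, about 1 read, and Foxd3 was at 0 in all 6. Erbb3 ranged from 36.6 to 59.0 in PSC and from 21.3 to 53.4 in PSC+SCG, and Fabp7 from 7.95 to 30.8 and from 20.8 to 88.3. The groups overlapped for each of the other 5 genes. The 2 tables were normalized separately, so these levels are not compared with those of the explants.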

How the data were processed

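Bulk RNA-seq libraries of SCG explants (n = 10) and mPSC1 cells (n = 6) were used, 16 in all. The authors aligned reads to GRCm39 with STAR 2.7.10b, counted them on GENCODE M33 basic genes with regard to strand, and divided counts by DESeq2 1.38.3 size factors (R 4.2.2). The deposited values are this signal, normalized counts, unfiltered and normalized separately for nerve and mPSC1 libraries. Whole reads were recovered (tolerance 0.01) in 9 of 10 nerve libraries, not in SCG+PSC replicate 4, and served for depth, edgeR 4.0.16 and DESeq2 1.42.0. These 9 libraries had at least 32013901 reads on genes.

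Log2(normalized count + 1) of genes with a summed count of at least 10 went into limma 3.58.1 under R 4.3.3 (trend) over all 10 nerve libraries without a block, with Benjamini-Hochberg adjustment over 23779 genes, at the thresholds the study states for fibroblasts (adjusted p 0.05, log2 fold change 0.5). Log2 fold changes are on this scale, which understates changes of low genes, except those by edgeR and DESeq2, which come from their fits to the recovered reads. The study's model had the batch, but the labels give no batch. The replicate numbers come from the labels. Same-numbered libraries deviated together (r from 0.385 to 0.799, n = 9 pairs over the 3 comparisons; different numbers had a median of -0.31 and ran from -0.597 to 0.494, the highest being SCG+MEF replicate 3 with SCG+PSC replicate 4), so the blocked fit is given where it changes a call. Genes were named as the 7 members, the genes of each list past the threshold or its 2 highest, and the 10 genes most like the members' mean profile (not all are printed, and some are not reported here). The limma fit without a block was checked on simulated counts that held no replicate effect. The blocked fit, edgeR and DESeq2 were not checked in this way. Exon length came from GENCODE M39. The members and lists were chosen with earlier results of these data known. Alternatives were other pseudocounts (0.5 and 8), filters, quantile normalization, adjustment over protein-coding genes, the 2 groups only, edgeR, DESeq2, and leaving out each library. The blocked fits without each library and with SCG+PSC replicate 4 in place of replicate 3 were chosen after seeing the data.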

Additional observations from a re-analysis of the deposited data

Results flagged for a closer look

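The effects of the 2 fibroblast lines on SCG explants differed for 13 of the 137 genes of the lists tested, by the limma test of SCG+PSC against SCG+MEF with the replicate block, which called 1.14% of all protein-coding genes. The log2 difference was 0.56 for Fabp7, 0.72 for Kcnj10, -0.54 for Olig1 and -0.79 for Igfbp2 among the glial genes, and -0.64 for the fibroblast gene Lum. It was 0.92 for Top2a, 1.08 for Mki67, 0.94 for Ccna2, 0.99 for Ccnb1, 1.05 for Cdk1, 1.09 for Plk1, 0.84 for Mcm2 and 0.94 for Mcm5, all genes of the dividing cell. Each difference was in the same direction in all 3 pairs of same-numbered libraries. The blocked difference is the mean of these pairs, so the shared direction adds no separate support. None of the 13 passed without the block in limma. With 1 library left out in the block, the number of cell division genes called ran from 0 to 11. In the only group of 4, SCG+PSC, no member had a library standing apart by Dixon's test.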

How the results depend on the processing

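The replicate block, together with edgeR and DESeq2, changed which glial genes were called. With the block by limma, edgeR and DESeq2 in turn, the calls among the 7 genes were 1, 1 and 1 in SCG+MEF relative to SCG and 1, 1 and 2 between the cocultures, and 0 in SCG+PSC relative to SCG. Among the other glial genes they were 3, 3 and 5 with PSC, 2, 2 and 2 with MEF, and 3, 3 and 6 between the cocultures. DESeq2 without the block called 1 with MEF and 1 between the cocultures. With SCG+PSC replicate 4 in the place of replicate 3 in the block, the other glial calls were 2, 2 and 1, and the calls among the 7 were 0, 0 and 1. Leaving out 1 library, with or without the block, gave 0 to 1 call among the 7 with MEF and between the cocultures, and 0 to 6, 0 to 2 and 0 to 5 calls among the other glial genes.

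Over all protein-coding genes the limma counts of 8, 3 and 0 became 308, 38 and 182 with the block, 323, 36 and 206 by edgeR with it and 415, 104 and 365 by DESeq2 with it. Without the block DESeq2 called 58, 21 and 18, edgeR 3, 3 and 0, and limma on the 2 groups alone 3, 0 and 0. In SCG+MEF relative to SCG quantile normalization and adjustment over protein-coding genes alone each gave 5.

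Differences near 0 changed sign. That of Kcnj10 between SCG+PSC and SCG was -0.025 without the block, 0.010 with it, 0.010 and 0.0089 by edgeR and DESeq2, 0.013 and 0.011 by these with the block, 0.0053 with replicate 4 in the block, and -0.11 to 0.084 with a library left out. Under quantile normalization the Sox10 difference with MEF was -4.24e-05, and with replicate 4 in the block that of Erbb3 between the cocultures was 0.017. With 1 library left out, in fits with and without the block, the SCG+PSC difference from SCG ran from -0.12 to 0.13 for Sox10, -0.22 to 0.039 for Foxd3, -0.0087 to 0.23 for Erbb3, -0.15 to 0.30 for Fabp7, -0.23 to 0.20 for S100b, -0.17 to 0.039 for Cdh19 and -0.45 to 0.089 for Mbp. The SCG+MEF difference from SCG ran from -0.15 to 0.19 for Sox10 and -0.038 to 0.25 for Cdh19. Between the cocultures the range was -0.17 to 0.17 for Sox10, -0.087 to 0.17 for Foxd3, -0.18 to 0.086 for Erbb3 and -0.033 to 0.25 for Gldn. The causes were not tested. Pseudocounts and filters were run without the block, where there were 0 calls among the 7 and the other glial genes to lose, so they say nothing about the blocked calls. Among other cells' genes limma with the block called 11 cell division genes with PSC and 8 between the cocultures, and 1 to 12 and 0 to 11 with 1 library left out. By DESeq2 with the block, 1 neuron marker and 1 macrophage marker passed with MEF, 2 fibroblast genes with PSC and 1 neuron marker between the cocultures. Among the 7 genes, by limma, the block changed no call other than those of Fabp7.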
